A study of Mus musculus with 52 samples.

Results

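The secreted and membrane-bound metalloproteases that cut extracellular matrix, and the inhibitors that hold them in check, were followed across primary mouse osteosarcomas. The members were all genes whose symbol is Mmp, Adamts or Adamtsl with a number, together with Timp1 to Timp4; 1 further Mmp gene was not analysed here. The annotation held 50 such genes, of which 46 were among the 20730 genes of the count table and 43 among the 19726 genes with enough counts for a test. Mmp1a, Mmp7, Mmp21 and Mmp24 were not analysed here, and Mmp1b, Mmp20 and Adamts19 had too few counts to be tested.

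Matrix metalloproteases (Mmp) are zinc enzymes, most of them made as inactive precursors, that cut collagens, gelatins and other matrix proteins. ADAMTS proteases are secreted relatives with thrombospondin repeats: some cut the large proteoglycans aggrecan and versican, some trim procollagens, and the Adamtsl proteins share the repeats but lack the protease domain. The 4 Timp proteins bind and block metalloproteases. In bone, Mmp13 is the collagenase of osteoblast-lineage cells and hypertrophic cartilage, Mmp14 sits in the cell membrane and activates the Mmp2 precursor with the help of Timp2, and Adamts2, Adamts3 and Adamts14 remove the amino-terminal propeptide of fibrillar procollagens.

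RNA came from flash-frozen primary osteosarcomas of mice of 3 genotypes, which all carried a conditional allele of Trp53, the gene of the tumour suppressor p53. The p53fl/fl tumours carried 2 such alleles, and the p53R172H/fl and p53R245W/fl tumours carried 1 together with an allele that encodes the named missense change. The Cre driver, the age of the mice and their number per tumour are not stated in the sources used here, nor is it said that tumours came from separate animals, so the p-values measure the spread between these samples. Stranded mRNA libraries were sequenced and reads counted per gene, and 52 libraries with 21596798 to 67223388 counts each were analysed.

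The libraries fell into 3 sets by the prefix of their column name, called A, B and C. Sets B and C have 1 prefix each. Set A pools the prefixes FM and FNM (p53fl/fl) and WFM and WFNM (p53R172H/fl), whose meaning the labels do not state. Each of the 18 libraries of set B (6 per genotype) paired with 1 library of another set and of the same genotype far better than with any other, with a Spearman correlation of 0.642 to 0.93 against at most 0.515 for any other pairing. These 18 pairs were summed, which left 34 tumour units: 10 of p53fl/fl, 13 of p53R172H/fl and 11 of p53R245W/fl. A summed unit is named by both tumour numbers, as in 1831/494. Set A gave 8, 8 and 0 of the units and set C 2, 5 and 11, in the order p53fl/fl, p53R172H/fl and p53R245W/fl, so the p53R245W/fl genotype and set C cannot be fully told apart. Trp53 RNA was 15.3 ± 3.63 CPM (counts scaled to library size; SD, n = 10) in p53fl/fl units, 36.1 ± 6.06 (n = 13) in p53R172H/fl units and 35 ± 10.2 (n = 11) in p53R245W/fl units, and the p53fl/fl range did not overlap the other ranges. A group of 3 p53R245W/fl units stood apart by low RNA of the bone collagen gene Col1a1, with 4565 CPM in unit 1580, 1130 CPM in unit 1831/494 and 1538 CPM in unit 1835/408. The next lowest of the 34 units, 941/555, had 13266 CPM. Results that rest on these 3 units are given with and without them.

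The matrix protease RNA of these tumours was dominated by a few enzymes and inhibitors. Per kilobase of exon, so that genes can be compared, Mmp13 had the highest mean level over the 34 units at 418 CPM per kb. It was followed by Timp1 at 233, Mmp2 at 210, Mmp14 at 114 and Timp2 at 113 CPM per kb. Among the ADAMTS genes the procollagen-trimming Adamts2 stood highest at 36.7 CPM per kb, ahead of the aggrecanase Adamts4 at 21.7 CPM per kb. At the other end, the von Willebrand factor-cleaving Adamts13 had 0.0546 CPM per kb and the enamel protease Mmp20 0.0392 CPM per kb. Mmp13 was the highest of the 46 members in 20 of 34 units, Mmp2 in 6, Timp1 in 4, Mmp14 in 3 and Timp2 in 1. The share of Mmp13 in the summed level of all members ran from 0.235% to 58.9%, with a median of 29.6%.

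**Figure D1:**
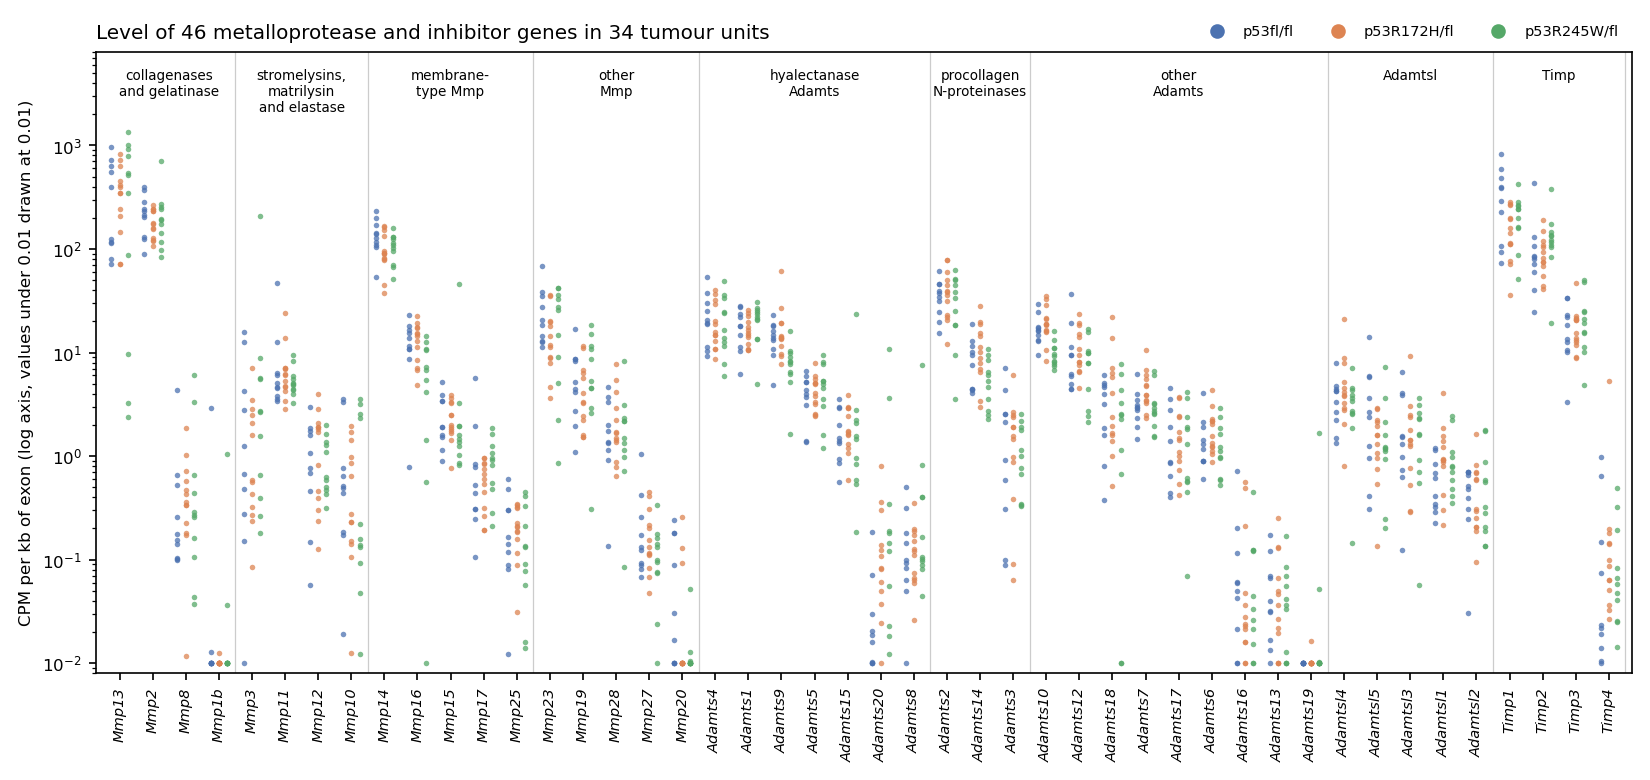
Level of each of the 46 members in 34 tumour units, in CPM per kb of exon on a log axis, with members grouped by role and ordered by mean level within a role. Each point is a tumour unit, coloured by genotype. Mmp13, Timp1, Mmp2, Mmp14 and Timp2 lie highest, and the genotypes overlap in every member.

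Mmp13, Mmp3 and Mmp10 lie in 1 cluster of Mmp genes on chromosome 9, and the bases before their start sites are shown because members of the cluster shared a motif that the choice of members did not use. Mmp13 is the collagenase, and Mmp3 and Mmp10 are the stromelysins, which cut proteoglycans, fibronectin and other Mmp precursors. The 150 bases before the start (RefSeq, GRCm38.p6, plus strand, chr9:7272364-7272513 for Mmp13, chr9:7445672-7445821 for Mmp3 and chr9:7502192-7502341 for Mmp10) are written 5′ to 3′. Capitals mark matches to the AP-1 motif TGANTCA, where N is any base, and to the Runx motif ACCACA, which is TGTGGT on the other strand.
Mmp13: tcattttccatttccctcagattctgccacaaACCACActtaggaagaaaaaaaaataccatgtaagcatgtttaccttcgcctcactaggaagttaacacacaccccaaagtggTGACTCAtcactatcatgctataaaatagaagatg
Mmp3: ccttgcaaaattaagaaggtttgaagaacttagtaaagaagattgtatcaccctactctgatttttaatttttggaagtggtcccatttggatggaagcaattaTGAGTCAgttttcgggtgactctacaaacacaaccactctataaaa
Mmp10: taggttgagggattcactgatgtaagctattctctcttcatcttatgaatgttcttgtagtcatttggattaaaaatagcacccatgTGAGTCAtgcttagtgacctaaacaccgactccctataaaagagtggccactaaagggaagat
The AP-1 match begins 35 bases before the start in Mmp13, 46 in Mmp3 and 63 in Mmp10. RefSeq promoter windows of 300 bases (250 of them before the start) were found for 32 of the 46 members. On either strand, an AP-1 match was present in 6 of the 8 cluster members with a window (Mmp1b, Mmp3, Mmp10, Mmp12, Mmp13 and Mmp20) and in 0 of the 24 others. Of 32851 RefSeq promoters of the same length, 7.8% held the motif. A Runx match was present in 5 members (Mmp13, Mmp14, Mmp1b, Mmp23 and Mmp27) and in 16.8% of all promoters. Mmp13 and Mmp1b held both motifs, which did not overlap. A match of letters is a description of the window and not a binding site.

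Mmp13 RNA varied far more between tumours than between genotypes. In p53fl/fl units it ran from 191 to 2557 CPM with a median of 693, in p53R172H/fl units from 191 to 2209 with a median of 935, and in p53R245W/fl units from 6.40 to 3611 with a median of 1389. The 3 lowest values were those of the units with low Col1a1 RNA, 25.8 CPM in 1580, 6.40 in 1831/494 and 8.67 in 1835/408, and all other 31 units had at least 191 CPM. In bulk tissue, fewer cells of a type and less RNA per cell cannot be told apart. The log2 fold change of Mmp13 was -0.01 ± 0.68 (SE) between p53R172H/fl and p53fl/fl, 0.43 ± 0.70 between p53R245W/fl and p53fl/fl and 0.44 ± 0.66 between p53R245W/fl and p53R172H/fl, and none passed edgeR's quasi-likelihood test, used throughout for single members (adjusted p of 0.998, 0.766 and 0.696). In a paired voom fit, which models library set and matched libraries together, the values for p53R245W/fl had the other sign, at -1.07 ± 0.86 and -1.21 ± 0.80 (adjusted p of 0.677 and 0.434).

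Mmp2, the gelatinase of connective tissue, was among the steadier members. It ran from 300 to 1344 CPM in p53fl/fl units (median 749), from 356 to 888 in p53R172H/fl units (median 593) and from 283 to 2375 in p53R245W/fl units (median 645). The groups overlapped over most of their range, and the single value above 1344 CPM was that of unit 1818. Its activator Mmp14 ran from 320 to 1394 CPM (median 795), 224 to 1001 (median 541) and 305 to 955 (median 655) in the same order. The p53fl/fl group held the highest Mmp14 value, in unit 1606, and the difference of p53R172H/fl from p53fl/fl was -0.47 ± 0.23 on the log2 scale (adjusted p = 0.44). Timp2 ran from 96.8 to 1707 CPM (median 321), 160 to 735 (median 321) and 75.9 to 1463 (median 475), with its lowest value in unit 1835/408. None of these genes passed the test in any comparison.

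Of the remaining membrane-type enzymes, Mmp16 had a mean of 96.0 CPM, Mmp15 18.5, Mmp17 5.61 and Mmp25 1.08. Mmp16 was at 0.0424 CPM in unit 1835/408, 4.83 in 1580, 6.75 in p53fl/fl unit 1606 and 12.5 in 1831/494, while every other unit had at least 36 CPM. Its difference between p53R245W/fl and p53R172H/fl was -0.99 ± 0.52 (adjusted p = 0.194) and -0.57 ± 0.34 without the 3 units of low Col1a1 (adjusted p = 0.315). Mmp15 was at 249 CPM in unit 1580 against at most 28 CPM in any other unit.

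Timp1, a secreted inhibitor of most Mmp enzymes, ran from 64.7 to 730 CPM in p53fl/fl units (median 302), from 31.7 to 255 in p53R172H/fl units (median 128) and from 45.8 to 377 in p53R245W/fl units (median 218). The highest values were in p53fl/fl units, and the groups overlapped. The difference of p53R172H/fl from p53fl/fl was -1.14 ± 0.36 (adjusted p = 0.176); the fit that treated all 52 libraries as independent gave -1.19 ± 0.32 with an adjusted p of 0.0273, and it called 3.75% of all genes. Within sets it was -0.79 ± 0.48 in A, -1.33 ± 0.54 in B and -1.26 ± 0.58 in C. Timp1 also differed between the libraries of a unit. The set B library was higher than its match in 18 of 18 units, by a median of 0.97 on the log2 scale, and the median difference between units of 1 genotype was 0.82. Timp3, the inhibitor that binds to matrix, was higher in set B in 18 of 18 units too, by a median of 0.39, and Mmp23, a small membrane-anchored Mmp, was lower in 18 of 18, by a median of -0.38. Of the 43 tested members, 42 differed less between the libraries of a unit than between units of 1 genotype, with medians of 0.26 and 1.0, and Timp1 was the exception.

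**Figure D2:**
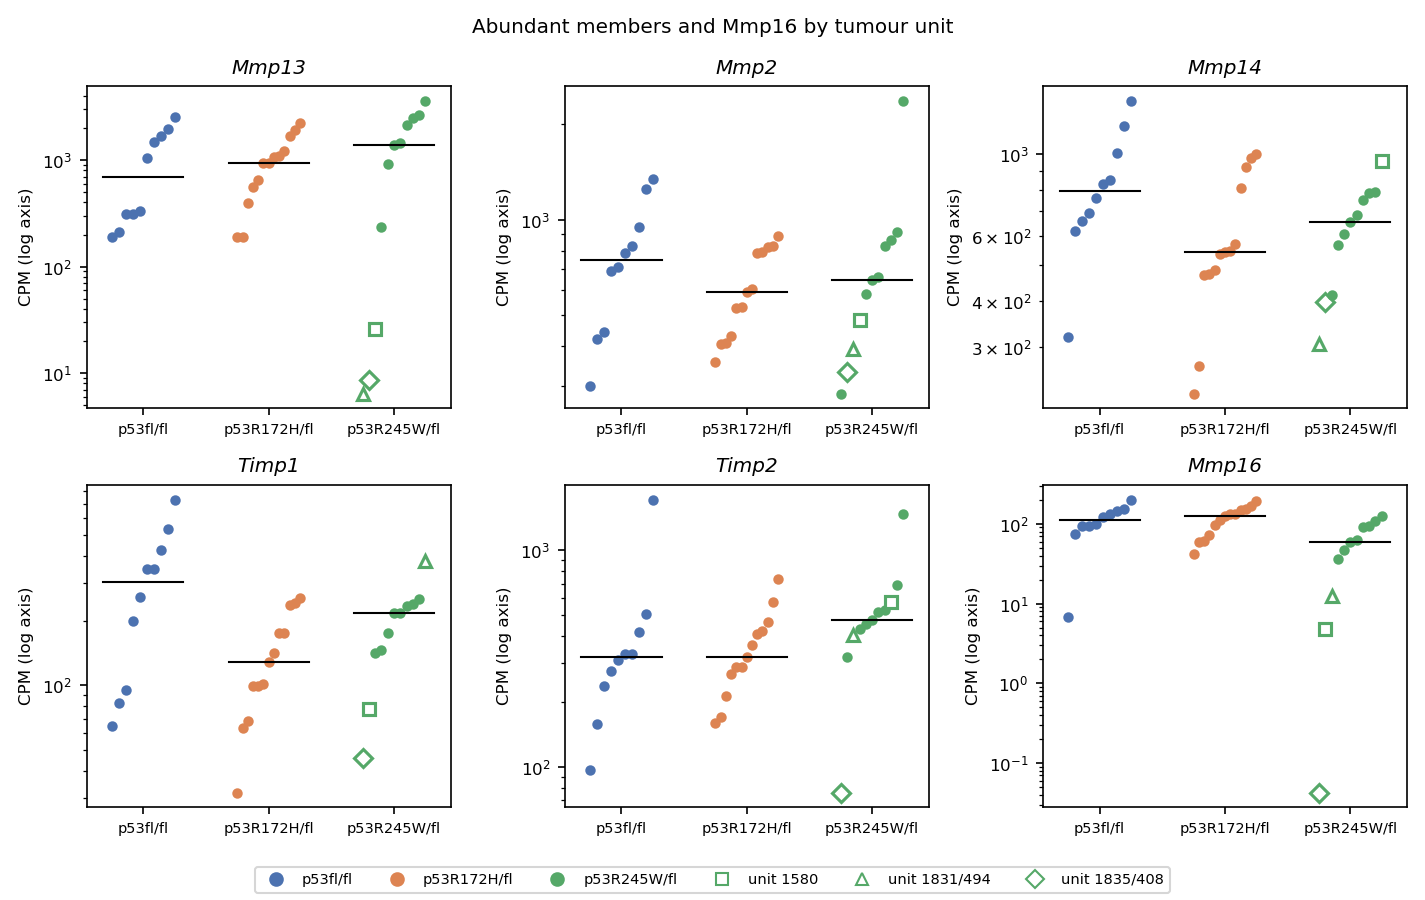
CPM on log axes of Mmp13, Mmp2, Mmp14, Timp1, Timp2 and Mmp16 in each tumour unit by genotype; bars are medians and open symbols mark the 3 p53R245W/fl units of low Col1a1 RNA. Those 3 units are the lowest for Mmp13 (25.8 CPM or less), and the genotypes overlap in every panel.

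The p53R172H/fl and p53fl/fl tumours were compared to set tumours with a missense p53 allele beside tumours in which both alleles were conditional. No member was called by edgeR (0 of 43 at an adjusted p under 0.05), beside 51 of all genes tested (0.259%). At an unadjusted p under 0.05 there were 5 members, beside 2278 of the 19726 genes tested. They were Timp1 and Adamtsl5 on the lower side in p53R172H/fl, and Adamts7, Adamtsl1 and Adamts20 on the higher side. Their adjusted p values ran from 0.176 to 0.404. DESeq2 called 1 member beside 1.45% of all genes, Adamts20, at 2.71 ± 0.78 (adjusted p = 0.0412), where edgeR gave 2.19 ± 1.03 (adjusted p = 0.404). The median log2 fold change of the members was -0.08, and that of all genes -0.03.

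The p53R245W/fl tumours were compared with each of the other groups. Both comparisons share the 11 p53R245W/fl units, and both comparisons with p53fl/fl share its 10 units, so their values are set side by side only. Against p53fl/fl, 3 members were called: Adamts20 and Adamts8 higher and Adamts10 lower in p53R245W/fl, beside 9.04% of all genes (4.68% higher and 4.35% lower). Against p53R172H/fl, 6 members were called: Mmp3, Adamts8 and Adamts20 higher, and Adamts10, Adamts9 and Adamts14 lower, beside 15.2% of all genes (8.8% higher and 6.41% lower). The members' shares, 3 of 43 and 6 of 43, were close to those backgrounds. Their median log2 fold changes were -0.15 and -0.05, beside 0.02 and 0.06 for all genes. With set A or C as a covariate, edgeR called 0 members in either comparison, beside 0.00507% and 0.375% of all genes. At an unadjusted p under 0.05 that fit held 8 and 9 members, beside 2248 and 3760 of the 19726 genes.

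**Figure D3:**
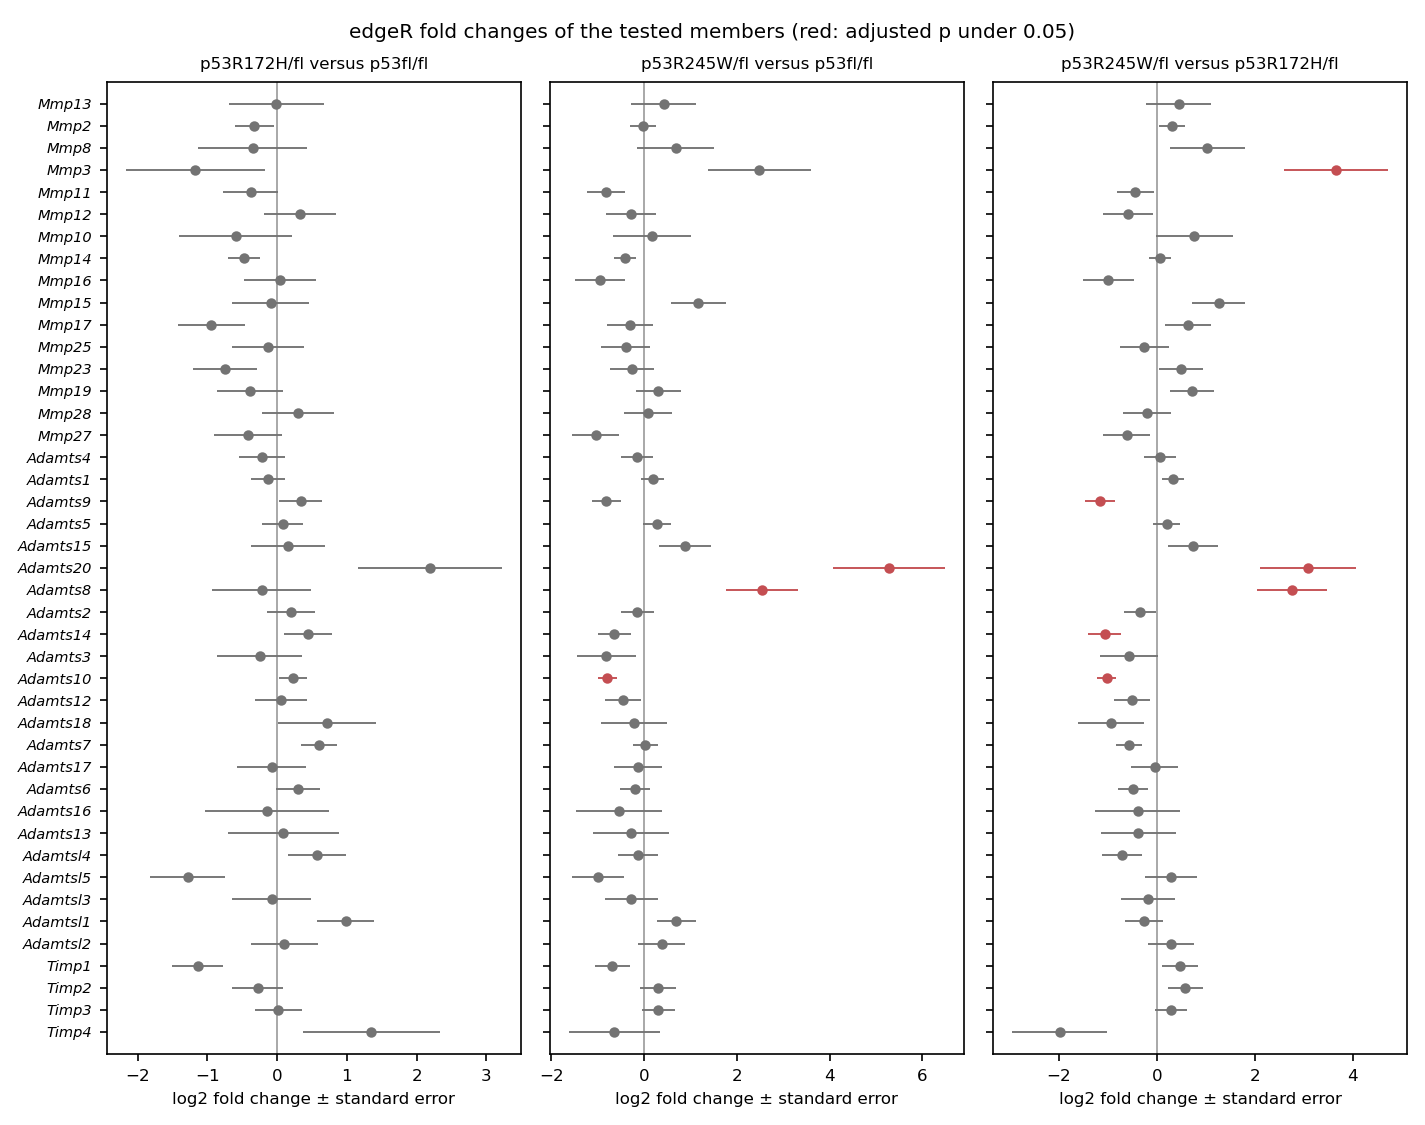
edgeR log2 fold change and standard error of the 43 tested members in the 3 genotype comparisons, ordered by role; red marks an adjusted p under 0.05. There are 0, 3 and 6 red points from left to right, and the largest values are those of Adamts20 (5.28 against p53fl/fl) and Mmp3 (3.66 against p53R172H/fl).

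The 3 members that were lower in p53R245W/fl than in p53R172H/fl shifted across most units of the group. Adamts10, a fibrillin-binding protease with a role in microfibrils, ran from 78.6 to 240 CPM in p53fl/fl units (median 135), from 68.8 to 292 in p53R172H/fl units (median 154) and from 56.1 to 135 in p53R245W/fl units (median 76.8). All 11 p53R245W/fl units lay below the p53R172H/fl median, and 5 of them below its lowest value. The difference was -1.03 ± 0.20 on the log2 scale against p53R172H/fl (adjusted p = 0.002) and -0.79 ± 0.21 against p53fl/fl (adjusted p = 0.0168). No single unit decided either value: without each of the 34 units in turn they ran from -1.13 to -0.93 and from -0.87 to -0.68, and both calls held. Without the 3 units of low Col1a1 together, the difference was -0.98 ± 0.23 against p53R172H/fl (adjusted p = 0.014) and -0.72 ± 0.24 against p53fl/fl, where the call was lost (adjusted p = 0.0739).

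Set B holds 6 libraries of each genotype and gives a comparison within a set. Its Adamts10 values ran from 49.1 to 70.0 CPM in p53R245W/fl and from 123 to 388 CPM in p53R172H/fl, without overlap. The difference within set B was -1.80 ± 0.26 (adjusted p = 0.00371), and Adamts10 was the only member called there, beside 3.38% of all genes. Within set B the difference from p53fl/fl was -0.77 ± 0.26 (adjusted p = 0.306). Within set C it was -0.89 ± 0.18 against p53R172H/fl (adjusted p = 0.119). The paired voom fit gave -0.89 ± 0.22 against p53R172H/fl (adjusted p = 0.0299, beside 1.55% of all genes called) and -0.66 ± 0.23 (adjusted p = 0.262) against p53fl/fl.

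A measure of RNA or library composition also differed between the groups. The share of counts at loci of the annotation classes TEC (loci that await experimental evidence) and sense intronic was 0.328% ± 0.122 in p53fl/fl units (n = 10), 0.304% ± 0.0478 in p53R172H/fl units (n = 13) and 0.170% ± 0.0480 in p53R245W/fl units (n = 11). Its ranges in p53R245W/fl (0.107% to 0.242%) and p53R172H/fl (0.222% to 0.379%) barely overlapped, so this covariate and the genotype cannot be fully told apart. The highest share, 0.511%, was that of p53fl/fl unit 562/475, whose Adamts10 value, 78.6 CPM, was the lowest of its group. Other p53fl/fl units went the other way. The next highest shares, 0.428% in unit 1522 and 0.414% in unit 1512, stood beside the highest Adamts10 values of the group, 203 and 240 CPM. The lowest shares, 0.112% in unit 4183/459 and 0.172% in unit 6019/327, stood beside 110 and 122 CPM. With this share as a covariate, the Adamts10 difference was -0.73 ± 0.25 against p53R172H/fl (adjusted p = 0.181) and -0.50 ± 0.25 against p53fl/fl (adjusted p = 0.463). The genes whose pattern over 34 units was most like that of Adamts10 were Gm43094 (Spearman rho 0.822), Sec16b (0.787) and Gm4081 (0.783), and Gm43094 and Gm4081 are TEC loci. Beyond this covariate, the part of that share in the result was not tested.

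Adamts9, a protease of versican and aggrecan, ran from 73.9 to 345 CPM in p53fl/fl units (median 216), from 117 to 930 in p53R172H/fl units (median 209) and from 24.7 to 241 in p53R245W/fl units (median 121). It fell by 1.16 ± 0.30 on the log2 scale in p53R245W/fl against p53R172H/fl (adjusted p = 0.0111), and the call held without any 1 of the 34 units. Unit 1831/494 held the lowest value, 24.7 CPM, and without the 3 units of low Col1a1 the difference was -0.92 ± 0.30 (adjusted p = 0.0602). The paired voom fit gave -1.06 ± 0.27 (adjusted p = 0.0341), and the covariate of TEC and sense intronic share gave -0.81 ± 0.40 (adjusted p = 0.401). Against p53fl/fl the difference was -0.81 ± 0.32 (adjusted p = 0.0995).

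Adamts14 was the only procollagen N-proteinase called. It ran from 21.2 to 97.9 CPM in p53fl/fl units (median 44.1), from 15.6 to 146 in p53R172H/fl units (median 52.5) and from 11.8 to 55.6 in p53R245W/fl units (median 27.7). Of the 11 p53R245W/fl units, 10 lay below the p53R172H/fl median. The difference was -1.07 ± 0.34 (adjusted p = 0.0288) and -1.42 ± 0.37 without the 3 units of low Col1a1 (adjusted p = 0.0227). It was -0.90 without p53R172H/fl unit 1439/476, the highest, and was then no longer called; with the TEC and sense intronic share it was -1.01 ± 0.45 (adjusted p = 0.34). The paired voom fit did not call it either, at -0.91 ± 0.31 (adjusted p = 0.102). The other N-proteinases, Adamts2 and Adamts3, differed by -0.34 ± 0.33 (adjusted p = 0.509) and -0.57 ± 0.60 (adjusted p = 0.557).

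The 3 members called higher in p53R245W/fl had their highest values in units of low Col1a1, and none was called without those 3 units. Mmp3 ran from 0.0163 to 28.2 CPM in p53fl/fl units (median 1.74), from 0.152 to 12.8 in p53R172H/fl units (median 1.06) and from 0.324 to 375 in p53R245W/fl units (median 4.79). The value of 375 CPM belonged to unit 1831/494, whose libraries gave 436 and 293 CPM. The difference from p53R172H/fl was 3.66 ± 1.06 on the log2 scale (adjusted p = 0.0187) with all units, 0.75 without unit 1831/494, which ended the call, and 0.52 ± 0.84 without the 3 units of low Col1a1 (adjusted p = 0.749). It was 1.19 ± 1.05 in the paired voom fit (adjusted p = 0.582) and 0.39 ± 1.74 with the TEC and sense intronic share (adjusted p = 0.955).

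Adamts8, a protease that can cut aggrecan, ran from 0.0301 to 2.30 CPM in p53fl/fl units (median 0.443), from 0.121 to 1.63 in p53R172H/fl units (median 0.559) and from 0.204 to 34.8 in p53R245W/fl units (median 0.488). The median of p53R245W/fl lay between the other medians, and the highest value was again that of unit 1831/494. The difference was 2.54 ± 0.78 against p53fl/fl (adjusted p = 0.036) and 2.76 ± 0.72 against p53R172H/fl (adjusted p = 0.0104). Without unit 1831/494 these were 0.58 and 0.80, and neither was called. Nor was either called in the paired voom fit (1.21 ± 0.96 and 1.0 ± 0.89, adjusted p of 0.672 and 0.585) or with the TEC and sense intronic share (1.19 ± 1.52 and 1.64 ± 1.24, adjusted p of 0.84 and 0.623). Against p53fl/fl the call was also lost without any 1 of the p53fl/fl units 1427/400, 1431/471, 1512, 1522, 1640/486 and 1979.

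Adamts20, a relative of Adamts9 known for its part in melanoblast development, was low in most tumours. It ran from 0 to 1.65 CPM in p53fl/fl units (median 0.157), from 0 to 7.17 in p53R172H/fl units (median 0.745) and from 0.111 to 98.0 in p53R245W/fl units (median 1.30); a unit at 0 can hold up to 3 counts by chance, 0.0252 to 0.07 CPM at these depths (counting error only). Unit 1835/408 had 98.0 CPM, with 84.9 and 119 CPM in its libraries, and unit 1580 had 32.6 CPM. The difference was 5.28 ± 1.21 against p53fl/fl (adjusted p = 0.00634) and 3.09 ± 0.98 against p53R172H/fl (adjusted p = 0.0306). Of the 11 p53R245W/fl units, 10 lay above the p53fl/fl median and 4 above its highest value. Against p53fl/fl the call held without each of the 34 units in turn, with values from 3.7 to 6.18. Against p53R172H/fl the call was lost without unit 1580 or without unit 1835/408, where the value was 1.5. Without all 3 units of low Col1a1 the values were 1.36 ± 0.83 against p53fl/fl (adjusted p = 0.366) and -0.84 ± 0.80 against p53R172H/fl (adjusted p = 0.558), so the direction of the latter turned. With the covariate of TEC and sense intronic share, Adamts20 was the only member called, at 6.95 ± 1.31 against p53fl/fl (adjusted p = 0.00887) and 4.48 ± 1.08 against p53R172H/fl (adjusted p = 0.0411), beside 0.725% and 0.705% of all genes. The paired voom fit gave 3.16 ± 1.41 and 0.94 ± 1.05 and did not call it (adjusted p of 0.414 and 0.679).

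**Figure D4:**
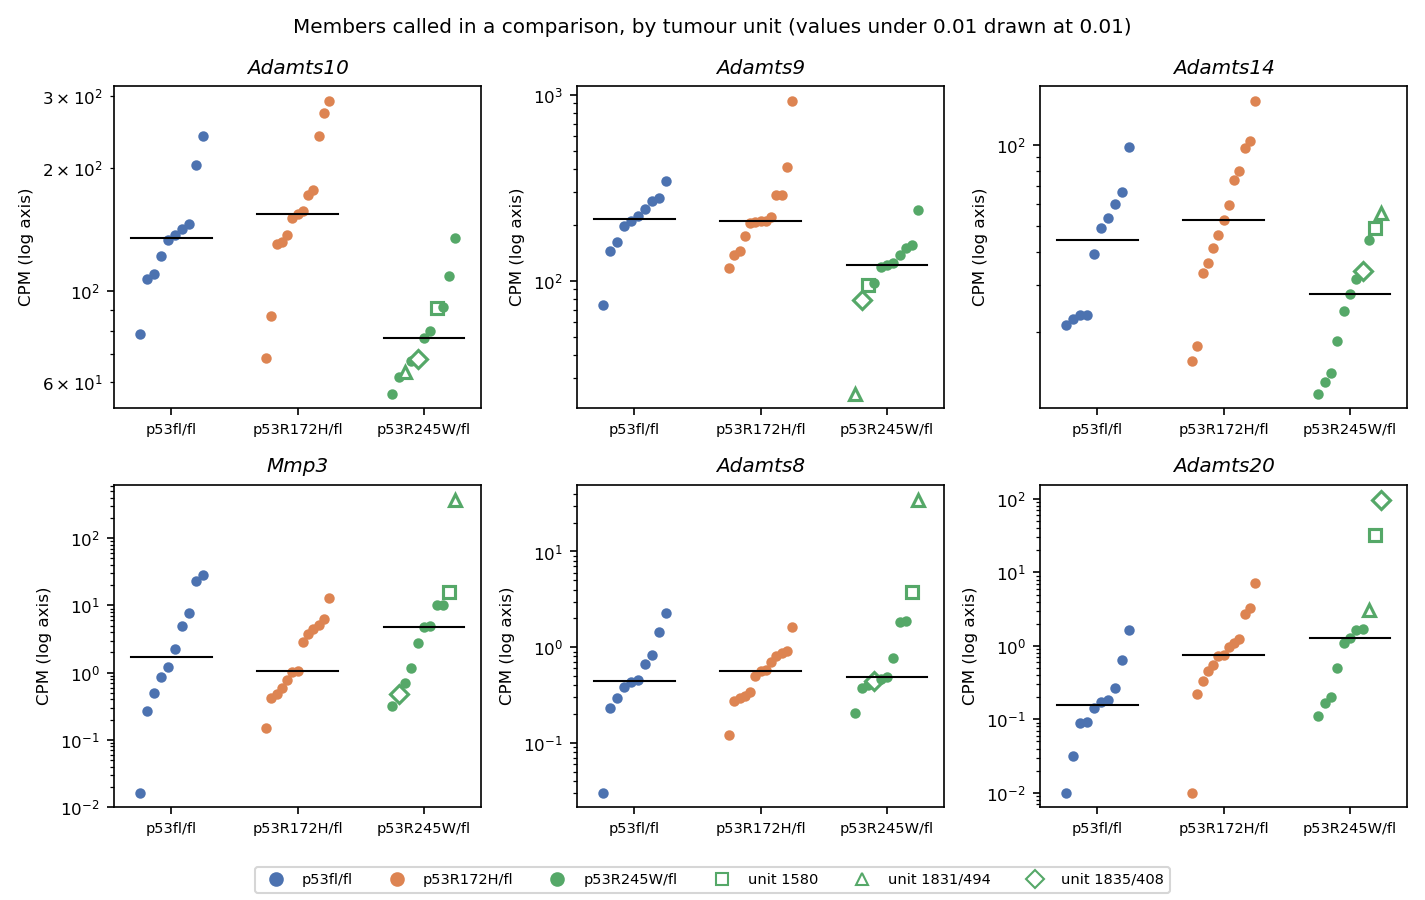
CPM on log axes, by tumour unit and genotype, of the 6 members called in at least 1 comparison; bars are medians and open symbols mark the 3 p53R245W/fl units of low Col1a1 RNA. Adamts10, Adamts9 and Adamts14 lie lower across most p53R245W/fl units, while the highest values of Mmp3 (375 CPM), Adamts8 (34.8 CPM) and Adamts20 (98.0 CPM) are single open symbols.

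The 3 units of low Col1a1 RNA had protease profiles that were alike in some members and differed in others. Mmp13 and Adamts12 lay below the 31 other units in all 3 of them. Mmp16, Mmp23 and Mmp27 lay below in units 1580 and 1835/408, and Adamts2 and Adamts18 in units 1831/494 and 1835/408. Timp3 and Adamts20 lay above in units 1580 and 1835/408, and Adamts8 in units 1580 and 1831/494. Against the 31 units outside this group, unit 1580 lay above all for 7 of the 43 tested members and below all for 5, unit 1831/494 above for 4 and below for 10, and unit 1835/408 above for 4 and below for 13. The same counts over all tested genes were not taken, so these are a description and not a result about proteases. In unit 1580 the membrane-type Mmp15 (249 CPM), the secreted Mmp28 (31.8 CPM) and the inhibitor Timp3 (408 CPM) were highest of all units. Timp3 was at 393 CPM in unit 1835/408. In unit 1831/494 the stromelysins Mmp3 (375 CPM) and Mmp10 (6.16 CPM), Mmp19 (64.6 CPM) and Adamts8 (34.8 CPM) were highest, while Adamts18 had 0.0311 CPM against a median of 32.5 CPM in the other 31 units. In unit 1835/408 the proteoglycan-cutting Adamts15 (243 CPM), Adamts5 (101 CPM) and Adamts20 (98.0 CPM) were highest. Adamts19, not tested, was at 23.3 CPM there and at most 0.723 CPM in any other unit.

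Lists of cell type markers were read in these units too. The summed RNA of 10 osteoblast genes ran from 35273 to 159754 CPM in p53fl/fl units, from 41665 to 169669 in p53R172H/fl units and from 2127 (unit 1831/494) to 176634 in p53R245W/fl units. This list holds Col1a1, by which the 3 units were picked, and Col1a2. In unit 1831/494 those genes gave 1130 and 963 CPM of the sum, so the sum largely restates that choice. The bone genes Sp7 and Ibsp were at 0.135 and 2.70 CPM in unit 1831/494, 1.89 and 25.4 CPM in unit 1580 and 122 and 462 CPM in unit 1835/408. The values of unit 1835/408 lay within the range of the units outside this group. There Sp7 was as low as 88.5 CPM (unit 1383) and Ibsp 383 CPM (unit 1522). Runx2, of the same list, was at 17.7, 5.62 and 189 CPM in units 1831/494, 1580 and 1835/408. The sum of 9 macrophage genes ran from 388 to 3043, 550 to 2225 and 220 to 6491 CPM in the same order, and unit 1831/494 had the highest Mrc1 (1539 CPM) and Csf1r (859 CPM) of all units. The sum of 7 epithelial genes ran from 2.73 to 16.6, 1.26 to 40.5 and 2.20 to 155 CPM, and unit 1835/408 had the highest Krt18 (55.2 CPM). The sum of 9 cartilage genes had medians of 2199, 1480 and 1609 CPM, and its lowest value, 64.5 CPM, was that of a p53R245W/fl unit. The units of low Col1a1 were not alike in this list. The list score, the mean log2 deviation of its genes from their medians, was 0.64 in 1835/408, -4.92 in 1831/494 and -2.46 in 1580. The highest score, 1.18, was that of p53R172H/fl unit 1441. Sox9 did not stand for the list. It was highest of all units in 1835/408, at 271 CPM, and was at 38.6 CPM in 1831/494 and 10.7 CPM in 1580. The labels call all these samples primary osteosarcoma; the part of these markers in the protease values was not tested.

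The Mmp cluster of chromosome 9 spans 427 kb and holds 10 members in the annotation, 8 of them in the table. The members of the cluster did not move as a block, and their levels spanned a wide range. Mmp13 had a median of 994 CPM, Mmp12, the macrophage elastase, 6.88, Mmp3 2.52, the neutrophil collagenase Mmp8 0.679, Mmp10 0.619, Mmp27 0.282 and Mmp20 0.0142 CPM. In p53fl/fl unit 1431/471 a run of genes was high together. Mmp3 (28.2 CPM), Mmp8 (10.6 CPM) and Mmp20 (0.8 CPM) were exceeded in 1 other unit each, and Mmp27 (2.32 CPM) was the highest of all.

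Next to the cluster lie the genes for Tmem123, the apoptosis inhibitors Birc2 and Birc3 and the growth regulator Yap1. Unit 1431/471 had the highest values of Tmem123 (488 CPM against a median of 138), Birc2 (184 against 35.9) and Birc3 (106 against 35.9), and the next to highest of Yap1 (369 against 103). Mmp13 and Mmp12 did not follow in that unit: Mmp13 had 1054 CPM, near its median, and Mmp12 1.07 CPM, below it. In unit 1580, Yap1 reached 1039 CPM, Cfap300 209 CPM and Cep126 47.8 CPM, the highest of all units, while Birc2 had 33.1 and Birc3 16.9 CPM. DNA copy number was not measured. Mmp12 and Mmp1b overlap on opposite strands, and Mmp1b has a near-identical neighbour, Mmp1a, so the Mmp1b values (4.25 CPM in p53fl/fl unit 1512, 1.5 CPM in 1831/494 and below 0.1 CPM in all others) are uncertain.

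**Figure D5:**
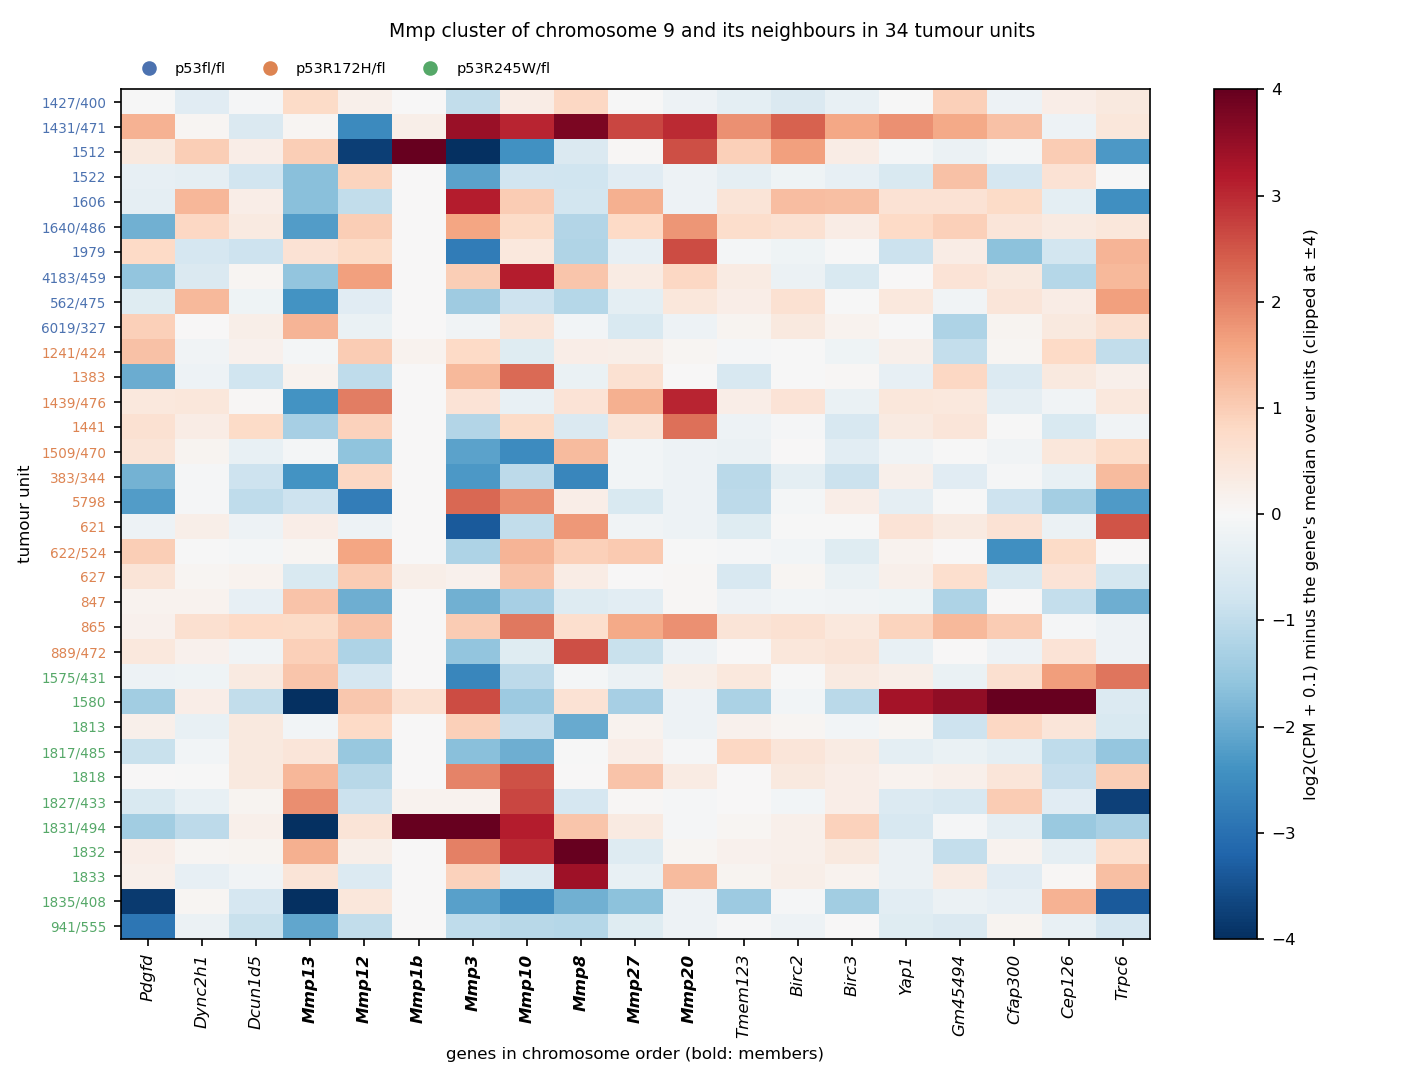
Deviation of each gene of the chromosome 9 Mmp cluster and of its 11 neighbours within 1 Mb from its median over 34 tumour units, on a log2(CPM + 0.1) scale clipped at ±4; columns follow chromosome order and bold names are members. Unit 1431/471 is above the median from Mmp3 to Cfap300, unit 1580 is high from Yap1 to Cep126, and Mmp13 is low in the 3 units of low Col1a1.

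Relations among members and with cell type markers were computed for 10 pairs over the 34 units, on log2 CPM with permutation tests (100000 resamples, two-sided) and adjustment over the 10. Mmp8 followed the neutrophil markers, with Pearson r 0.874 (adjusted p = 0.00005) and Spearman rho 0.788 (adjusted p = 0.00005; the unadjusted p of 0.00001 is the smallest these permutations give). The highest Mmp8 values, 14.7 CPM in unit 1832, 10.6 in 1431/471 and 8.11 in 1833, were in the 3 units of the highest neutrophil score. Without the 2 units farthest from the Mmp8 median r was 0.818, and within sets A and C it was 0.833 and 0.907. Mmp25, another Mmp of leukocytes, gave r 0.420 (adjusted p = 0.0183) and rho 0.298 (adjusted p = 0.123). For Mmp12 with macrophage markers r was 0.240 (adjusted p = 0.172) and rho 0.208 (adjusted p = 0.294).

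The stromelysins moved together: Mmp3 and Mmp10 gave r 0.681 (adjusted p = 0.000067) and rho 0.677 (adjusted p = 0.00005). Without the 2 farthest units r was 0.609, and within sets A and C it was 0.859 and 0.630. Mmp3 and Mmp13, whose promoter windows both hold the AP-1 letters, gave r -0.331 (adjusted p = 0.0628) and rho -0.175 (adjusted p = 0.358). The pieces of the Mmp2 activation complex were also correlated over all units. Mmp2 with Mmp14 gave r 0.484 and rho 0.546 (adjusted p = 0.0076 and 0.00313), with r 0.529 without the 2 farthest units and 0.515 and 0.551 within sets A and C. Mmp2 with Timp2 gave r 0.555 and rho 0.516 (adjusted p = 0.00172 and 0.00512), with r 0.471 without the 2 farthest units and 0.354 and 0.729 within the sets. Mmp14 with Timp2 gave r 0.472 and rho 0.397 (adjusted p = 0.00818 and 0.0332), with r 0.501 without the 2 farthest units and 0.635 and 0.521 within the sets. Some of these did not pass under every setting: within set A, rho of Mmp2 with Timp2 was 0.303 (adjusted p = 0.284) and that of Mmp14 with Timp2 0.403 (adjusted p = 0.188). The latter was 0.378 without the 2 farthest units (adjusted p = 0.0679) and 0.336 without the 3 units of low Col1a1 (adjusted p = 0.13).

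Mmp13 followed the osteoblast markers, with r 0.815 (adjusted p = 0.00005) and rho 0.455 (adjusted p = 0.0145), but the relation rested on the units of low Col1a1. Without those 3 units r was 0.339 (adjusted p = 0.0784) and rho 0.281 (adjusted p = 0.177). Without the 2 units farthest from the Mmp13 median r was 0.610, and within sets A and C it was 0.435 and 0.868. With cartilage markers, Mmp13 gave r 0.366 (adjusted p = 0.0485) and rho -0.054 (adjusted p = 0.76), and r was -0.148 without the 3 units.

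Other genes of matrix proteolysis were read from a list of 56 activators, inhibitors, related proteases and substrates, of which 49 were tested. Against p53fl/fl, edgeR called 0 of the 49 in p53R172H/fl and 0 in p53R245W/fl, beside 51 and 1783 of all 19726 genes. At an unadjusted p under 0.05 there were 1 and 2, beside 2278 and 4797 of all genes. DESeq2 called 1 (Pcsk7) and 0, beside 286 and 2482 of all genes. Between p53R245W/fl and p53R172H/fl, edgeR called 2 higher and 1 lower of the 49, beside 15.2% of all genes (8.8% higher and 6.41% lower). The plasminogen activator Plat was higher by 1.38 ± 0.42 on the log2 scale (adjusted p = 0.0253) and the lysosomal protease Ctsl by 1.05 ± 0.34 (adjusted p = 0.0347), and the proprotein convertase Pcsk7 differed by -0.45 ± 0.14 (adjusted p = 0.0326). Without the 3 units of low Col1a1 the values were 0.87 for Plat, 0.33 for Ctsl and -0.38 for Pcsk7, and none passed (adjusted p of 0.217, 0.434 and 0.115). In the paired voom fit they were 1.21, 0.60 and -0.48, and again none passed (adjusted p of 0.0864, 0.282 and 0.0648). That fit called 1 gene of the list, the proprotein convertase Pcsk6, at -1.92 (adjusted p = 0.041), where edgeR gave -0.96 ± 0.52 (adjusted p = 0.211). The median log2 fold change of the list between these groups was -0.03, beside 0.06 for all genes.

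For the other called members, the genes of the most similar pattern over the 34 units, by Spearman rho among all tested genes, are given as a description. They were Dpt (0.793), Ptgir (0.763) and Nrg1 (0.755) for Mmp3, Sele (0.765), Kcnab1 (0.727) and Sgip1 (0.690) for Adamts8, and Col6a6 (0.756), Atad3aos (0.752) and Klhl29 (0.749) for Adamts20. For Adamts14 they were Pald1 (0.672), Dmwd (0.652) and Magi1 (0.640), and for Adamts9 Gm13844 (0.756), Gm37728 (0.702) and Gm44331 (0.701). The points are units and share no library.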

How the data were processed

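The authors deposited a table of raw read counts per Ensembl gene, without normalization, for 52 libraries of mouse osteosarcoma. Per the submitters' processing notes, reads were aligned with STAR to GRCm38; the STAR version, the counting program and its strand setting are each not given in the sources used here. Identifiers were joined to GENCODE M21 (20668 matched, 62 did not). Every gene in the table had a total of at least 260 counts.

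The members and gene lists were chosen with earlier results of these data known. Set B libraries were matched to sets A and C by reciprocal Spearman correlation above 0.6 over 13489 genes, and matched counts were summed into 34 units. edgeR 4.0.16 (R 4.3.3) fitted all 3 genotypes at once with TMM factors, filterByExpr (minimum count 10) and robust quasi-likelihood F tests, adjusted by Benjamini-Hochberg over 19726 genes; called means an adjusted p under 0.05. CPM were scaled by TMM, and log2 CPM had 2 prior counts added. Standard errors for edgeR were derived as the absolute log2 fold change divided by the square root of the F statistic. Those of DESeq2 and voom come from the fit. Members called, the 2 of highest level per role and the 3 of widest range over units are given in full, and others are named for a stated value. Alternatives were 52 separate libraries, a paired limma 3.58.1 voom fit (pair correlation 0.857), set or TEC share as covariate, each set alone, removal of the units of low Col1a1, RLE factors, DESeq2 1.42.0, no filter and 2 groups alone. Leaving out each unit was chosen after seeing the data. On simulated counts of 19486 genes, 100 of them changed by a log2 size of 1 and 100 by a size of 2, edgeR recovered 55% and 87% between p53R245W/fl and p53fl/fl with 8 false calls, 62% and 89% between p53R245W/fl and p53R172H/fl with 1 false call, and made 0 calls between p53R172H/fl and p53fl/fl, simulated without a difference. The changed genes had a mean above 1 CPM. The simulated counts held no set effect and no unit set apart, so they cannot show how often such effects give calls.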

Additional observations from a re-analysis of the deposited data

Results flagged for a closer look

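In p53fl/fl unit 1606 the stromelysin-like Mmp11 was at 131 CPM, set apart from the other 9 p53fl/fl units (on the log2 CPM scale, the gap to the nearest over the whole range was 0.501). In the same unit the membrane-type Mmp16 was at 6.75 CPM, far below the other 9 (ratio 0.712). A gap of this kind arises by chance in about 1 of 20 groups, and each member was looked at in each group of 10 or fewer units. Only the p53fl/fl group was that small. At that rate a few such gaps are due by chance over all members, so these values are a description only.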

How the results depend on the processing

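The counts of calls depended on how libraries were used. Between p53R172H/fl and p53fl/fl, 51 genes and 0 members were called. The genes numbered 708 with 52 libraries as independent, 286 with DESeq2, 90 with a covariate of TEC plus sense intronic share, 135 with no filter and 2 in the paired voom fit, and 95, 1 and 0 within sets A, B and C. The members numbered 1 with 52 libraries (Timp1) and 1 with DESeq2 (Adamts20). Between p53R245W/fl and p53fl/fl, 1783 genes and 3 members were called. The genes numbered 3365 with 52 libraries, 143 with the TEC share, 4 and 0 within sets B and C, 3 in the paired voom fit, 1 with set A or C as covariate, 923 with the 2 groups alone and 853 without the units of low Col1a1. The members numbered 6, 1, 0, 0, 0, 0, 2 and 0 in that order. Between p53R245W/fl and p53R172H/fl, 3000 genes and 6 members were called. The genes numbered 5829 with 52 libraries, 139 with the TEC share, 615 and 3 within sets B and C, 293 in the paired voom fit, 74 with set A or C as covariate and 1280 without the units of low Col1a1. The members numbered 8, 1, 1, 0, 2, 0 and 2 in that order. DESeq2 called 3586 genes and 3 members. The cause of these differences was not tested. Fold changes of the 22 members given by rule, 748 cases under these alternatives, kept their direction and side of the threshold in 643. In 47 a value called in neither fit turned its sign, in 51 the call was lost, in 6 it was gained and in 1 a called value reversed: Adamts20 against p53R172H/fl was -0.84 without the units of low Col1a1. That value and 1.5 (without unit 1835/408) stand against 3.09 with all units.

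Without each of the 34 units in turn, the genes called ran from 16 (without 1431/471) to 74 (without 1522) between p53R172H/fl and p53fl/fl, from 1266 to 2278 between p53R245W/fl and p53fl/fl and from 2212 to 3285 between p53R245W/fl and p53R172H/fl. The members called were 0 in each such fit of the p53R172H/fl and p53fl/fl groups, 2 to 4 and 4 to 7 in the others. Of the relations, rho of Mmp13 with osteoblast markers was 0.394 in set A, 0.346 without the 2 farthest units and 0.281 without the units of low Col1a1; that of Mmp14 with Timp2 was 0.403, 0.378 and 0.336; and that of Mmp2 with Timp2 was 0.303 in set A. None of these passed at an adjusted p under 0.05. No paired analysis was possible between genotypes because the tumour numbers of the labels are not shared by them. Members below about 1 CPM, such as Mmp20 or Adamts13, rest on few counts per library, and sets differ between genotypes, which limits every comparison with p53R245W/fl.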
